A study of Mus musculus with 24 samples.

Results

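The 8 genes described here code for enzymes, pumps and transporters of 3 ATP-spending cycles of fat cells. They are Ckb, Ckmt1, Ckmt2, Gatm, Gamt and Slc6a8 of creatine metabolism, Atp2a2 of calcium cycling and Gk of glycerol re-use. They were taken as a list of gene names and make up 8 of the 24825 genes listed in each library. RNA-seq had been performed on cells of the stromal vascular fraction (SVF), a mixture that holds the precursors of fat cells, isolated from inguinal white fat of mice. All cells carried Nfia alleles with a floxed exon 2 (flox/flox) and had been immortalized with SV40 large T antigen. Nfia codes for nuclear factor I-A, a DNA-binding transcription factor. There were 4 cell types. In ctrl the cells had received an empty retrovirus, and in Cre one with Cre recombinase. In Cre + NFIA they had also received full-length NFIA with a FLAG tag. In Cre + NFIA Δpro#3 the tagged protein lacked the C-terminal stretch named pro#3. Each was sampled at day 0 and at day 7 of differentiation in 3 replicates, so that 24 libraries fell into 8 groups. Differentiation medium held insulin (850 nM), T3 (1 nM) and rosiglitazone (1 µM), an activator of the fat cell receptor PPARγ, with dexamethasone (1 µM), IBMX (0.5 mM) and indomethacin (125 nM) added for the first 48 h. All groups derive from immortalized cells in culture, and NFIA came from a virus and not from the gene's own promoter. Whether the replicates were separate cultures is not stated, so p-values measure only the spread between these libraries, which may be technical.

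In the creatine cycle, GATM and GAMT make creatine in sequence, SLC6A8 carries it into the cell, and creatine kinases in the cytosol (CKB) or in mitochondria (CKMT1, CKMT2) move phosphate from ATP to creatine, so that repeated loss of that phosphate spends ATP as heat. In the calcium cycle, the pump SERCA2, the product of Atp2a2, spends ATP to return leaked calcium to the endoplasmic reticulum. Glycerol kinase (GK) phosphorylates free glycerol, which lets a fat cell rebuild the triglyceride it has just broken down, again at the cost of ATP. All 3 cycles are known from thermogenic fat, where they can produce heat beside or without UCP1.

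Levels are in FPKM (fragments counted for a gene, divided by its length in kilobases and by the library's total in units of 1000000), so they can be compared between genes. Library totals were 7.73 to 14.62 M reads (M, 1000000). Changes are log2 fold changes of FPKM + 1, which makes the change of a low gene smaller, each with its standard error (SE) and a p-value adjusted over 12640 genes. A gene was tested if it reached 1 FPKM in at least 3 of the 24 libraries. It is said to have changed at an adjusted p under 0.05 and to have made a large change if the change was also at least 3-fold. Of the 8 genes, 6 passed this filter. Ckb, Gamt, Slc6a8, Gk and Atp2a2 were above 1 FPKM in 24 of 24 libraries. Ckmt1 passed only through day 7, with 12 libraries at or above 1 FPKM there and 2 at day 0, fewer than the filter needs. Ckmt2 and Gatm reached that level in 0 libraries and were not tested.

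The level of Nfia over the whole gene overlapped between the libraries labelled Cre (5.34 to 6.81 FPKM at day 0, 9.49 to 10.7 at day 7) and ctrl (6.23 to 6.75 and 9.15 to 9.81). A whole-gene sum does not test the loss of exon 2, so each direction given for the libraries labelled Cre rests on their label. The study reported recombination by PCR of genomic DNA and NFIA mRNA and protein almost absent in Cre-expressing cells, which these values cannot check. Both NFIA viruses gave 59.7 to 111 FPKM, and this value includes reads of the virus. The labelled tissue was checked on 6 markers of stromal precursors, whose summed level was 2022 to 2369 FPKM in the 12 libraries of day 0. Much of that sum came from Ly6a, which reached up to 1968 FPKM, while Dpp4 was at most 0.0751 FPKM in any library. Markers of endothelium (5 genes, at most 3.92 FPKM in sum) and leukocytes (6 genes, at most 13.6) were low, and Myod1, a defining gene of the skeletal muscle lineage, was at 0 reads in 24 of 24 libraries.

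Promoter sequences are shown for the 4 creatine and glycerol genes that changed in the comparisons below and for which RefSeq gave one. RefSeq promoters (build GRCm38.p6, 250 bases before to 50 bases after the annotated start, read along the gene's strand) were found for 6 of the 8 genes. Slc6a8 and Atp2a2 are named only. The runs were searched on both strands for TTGGC, the half-site read by NFI proteins, and for AGGTCA, the half-site of nuclear receptors such as PPARγ, and matches are in capitals (GCCAA and TGACCT are the same letters on the other strand).
Gk, chrX:85776770-85777069, minus strand: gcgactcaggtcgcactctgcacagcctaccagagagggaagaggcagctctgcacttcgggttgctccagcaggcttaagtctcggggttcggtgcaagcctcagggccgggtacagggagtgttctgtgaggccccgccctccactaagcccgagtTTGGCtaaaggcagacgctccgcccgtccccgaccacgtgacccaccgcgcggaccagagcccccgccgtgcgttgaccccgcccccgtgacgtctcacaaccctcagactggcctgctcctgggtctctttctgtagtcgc
Gamt, chr10:80260963-80261262, minus strand: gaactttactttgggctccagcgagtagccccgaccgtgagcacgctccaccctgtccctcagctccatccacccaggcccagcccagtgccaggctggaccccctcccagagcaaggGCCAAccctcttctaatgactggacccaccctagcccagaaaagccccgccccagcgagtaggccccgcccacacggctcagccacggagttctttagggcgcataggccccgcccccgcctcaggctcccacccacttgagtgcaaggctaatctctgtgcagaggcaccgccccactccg
Ckb, chr12:111672289-111672588, minus strand: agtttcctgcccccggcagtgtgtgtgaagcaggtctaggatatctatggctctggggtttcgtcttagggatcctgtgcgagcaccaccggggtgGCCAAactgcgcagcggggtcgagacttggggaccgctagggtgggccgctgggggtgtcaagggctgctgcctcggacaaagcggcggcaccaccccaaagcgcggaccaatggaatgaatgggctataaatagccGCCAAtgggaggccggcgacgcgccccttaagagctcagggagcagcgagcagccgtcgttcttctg
Ckmt1, first annotated start, chr2:121357526-121357825, plus strand: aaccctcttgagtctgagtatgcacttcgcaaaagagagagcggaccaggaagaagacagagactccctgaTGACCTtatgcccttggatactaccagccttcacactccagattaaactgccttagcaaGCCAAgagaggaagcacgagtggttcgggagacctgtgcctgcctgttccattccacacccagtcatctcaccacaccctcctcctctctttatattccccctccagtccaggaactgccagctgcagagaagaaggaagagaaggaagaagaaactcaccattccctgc
TTGGC stood in each of these 4 runs and in 46.7% of all 32851 RefSeq promoters of that length, and AGGTCA stood in the Ckmt1 run and in 16.3% of all. Neither the paired form (TTGGC facing its mirror copy 5 bases away), found in 0.0365% of promoters, nor the receptor form (AGGTCA repeated after 1 base), found in 0.0396%, stood in any run of the 6 genes. The second annotated start of Ckmt1 held none of these letters. These matches describe letters in a window and do not show a bound site.

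Gk had the widest range of the 6 tested genes, with group means that differed up to 9.20-fold, against 6.46-fold for Ckmt1, 3.74-fold for Slc6a8 and 1.18-fold for Atp2a2. It lies on the minus strand at chrX:82947276-83022158 of mm9, where the annotation names it Gyk. At day 0 its level was low in each cell type, at 2.37, 2.91 and 2.13 FPKM in the 3 ctrl libraries, 3.11, 2.43 and 2.60 in those labelled Cre, 3.13, 2.71 and 3.54 with NFIA and 2.55, 2.95 and 2.89 with NFIA Δpro#3. None of the 5 comparisons at day 0 passed the test (lowest adjusted p = 0.10, for Cre + NFIA against ctrl, which was 0.041 without ctrl replicate 2). At day 7 the ctrl libraries had 21.0, 21.8 and 25.4 FPKM and the Cre libraries 8.10, 9.09 and 7.44. The libraries with full-length NFIA had 21.0, 20.6 and 20.6 FPKM, and those with the Δpro#3 form had 3.12, 4.31 and 4.82. At day 7 the ctrl and Cre + NFIA libraries thus overlapped, while the Cre libraries lay apart from both and the Δpro#3 libraries were the lowest.

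The mean Gk level in the day 7 Cre libraries was 36.2% of that in ctrl, a log2 fold change of -1.36 (SE 0.12, adjusted p = 2.3e-06). With full-length NFIA it was 252.6% of the Cre level (log2 fold change 1.24, SE 0.12, adjusted p = 2.3e-06). The Δpro#3 form instead went with a level at 49.7% of that in Cre (log2 fold change -0.87, SE 0.12, adjusted p = 0.00078), and this change was -0.54 with a pseudocount of 5. Between the NFIA forms the difference was -2.11 (SE 0.12, adjusted p = 2.2e-08), a large change. Cre + NFIA did not differ from ctrl by the test (-0.12, SE 0.12, adjusted p = 0.53).

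**Figure D1:**
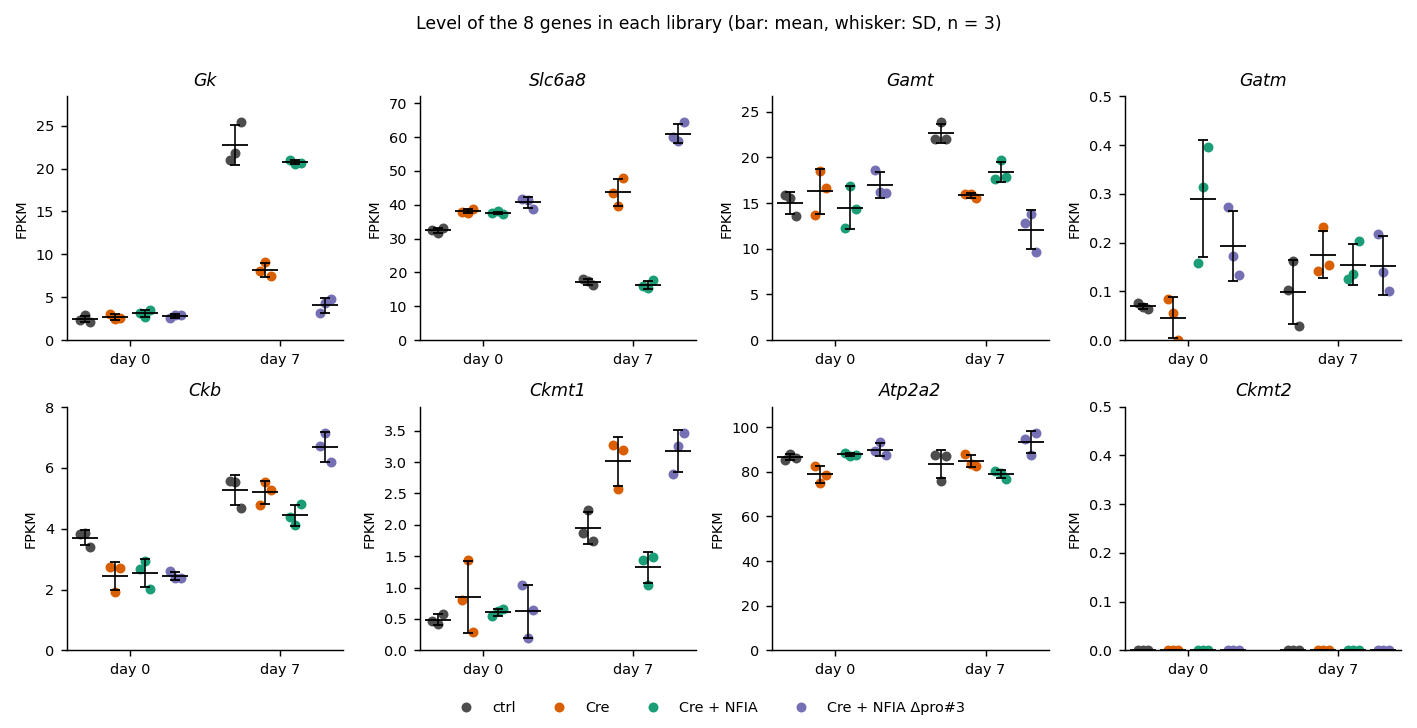
FPKM of each of the 8 genes (vertical axes, from 0) in each library of the 4 cell types at day 0 and day 7; points are libraries, bars the mean and whiskers the SD of 3. Gk at day 7 sat at 20.6 FPKM or above in ctrl and Cre + NFIA and at 9.09 or below in the other cell types, Slc6a8 showed the opposite order, and Ckmt2 was at 0 in every library.

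From day 0 to day 7 Gk rose in each of the 4 cell types, by amounts that differed. The log2 fold change was 2.78 in ctrl (SE 0.12, adjusted p = 1.5e-14) and 2.40 in Cre + NFIA (SE 0.12, adjusted p = 1.2e-13), both large changes. In the Cre libraries it was 1.31 (SE 0.12, adjusted p = 7.7e-09). With NFIA Δpro#3 it was 0.41 (SE 0.12, adjusted p = 0.0079). That last call was lost with quantile normalization (adjusted p = 0.11), when only these groups were fitted (0.053) or without replicate 3 of day 7 (0.062). The rise was smaller in Cre than in ctrl by 1.46 on the log2 scale (difference of changes -1.46, SE 0.16, adjusted p = 6.1e-07). It was larger with full-length NFIA than in Cre (1.09, SE 0.16, adjusted p = 1.4e-05) and smaller with the Δpro#3 form than in Cre (-0.90, SE 0.16, adjusted p = 0.00071).

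Most of the other genes of glycerol and triglyceride cycling, a list of 16 that was set with earlier results of these data known, changed in the same direction as Gk in 3 comparisons at day 7. The 16 genes code for the glycerol channel (Aqp7), enzymes that make or use glycerol phosphate (Gpd1, Gpd2, Gk5), an enzyme on the route from oxaloacetate to glycerol phosphate (Pck1), lipases and their activator (Pnpla2, Lipe, Mgll, Abhd5) and enzymes that build triglyceride (Gpam, Gpat3, Gpat4, Agpat2, Lpin1, Dgat1, Dgat2), and all 16 were tested. At day 7, 14 were lower and 0 higher in Cre than in ctrl, with a median log2 fold change of -1.50 against 0.09 over all genes, of which 58.8% changed. With full-length NFIA 15 were higher and 0 lower than in Cre (median 1.64, against -0.06 over all genes, of which 63.0% changed). With the Δpro#3 form 13 were lower and 0 higher than in Cre (median -1.33, against 0.02, with 17.7% of all genes changed). Cre + NFIA against ctrl gave 3 higher and 0 lower, beside 18.0% of all genes. Gk5, a relative of Gk, overlapped between ctrl (2.12 ± 0.107 FPKM, SD, n = 3) and Cre (2.16 ± 0.134) at day 7.

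Pck1, whose product turns oxaloacetate into phosphoenolpyruvate, was among the 2 genes of that list with the largest change in 4 of the 5 comparisons at day 7. Its level at day 7 was 17.1, 20.6 and 21.5 FPKM in ctrl, 2.58, 2.55 and 2.18 in the Cre libraries, 33.6, 34.8 and 40.1 with full-length NFIA and 0.164, 0.885 and 1.02 with the Δpro#3 form, and no 2 of these groups overlapped. The change was -2.59 in Cre against ctrl (SE 0.17, adjusted p = 6.5e-07), 3.43 in Cre + NFIA against Cre (SE 0.17, adjusted p = 2.5e-08) and 0.85 in Cre + NFIA against ctrl (SE 0.17, adjusted p = 0.0065). Gpd1, which reduces dihydroxyacetone phosphate to glycerol phosphate, had 1601, 1989 and 1882 FPKM in ctrl and 333, 453 and 196 in the Cre libraries (log2 fold change -2.55, SE 0.36, adjusted p = 8.4e-05). At day 0, 6 of the 16 were higher and 0 lower in Cre + NFIA than in Cre, where 27.6% of all genes changed.

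**Figure D2:**
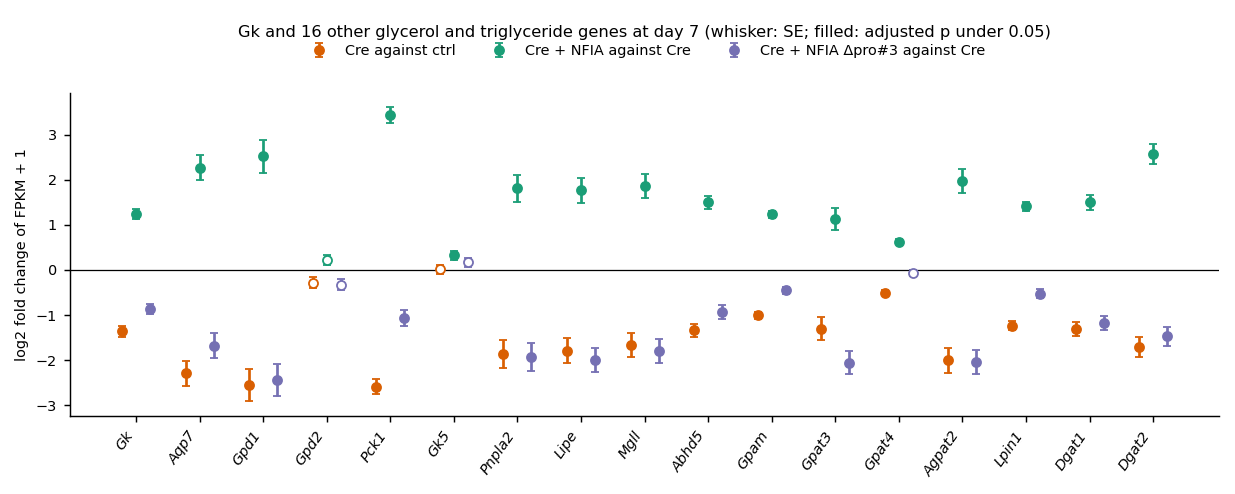
Log2 fold change of FPKM + 1 at day 7 (vertical axis) for Gk and the 16 other glycerol and triglyceride genes in 3 comparisons; whiskers are SE and filled points passed an adjusted p of 0.05. Gk moved with most of the list: 14 of the 16 genes were lower in Cre than in ctrl, 15 were higher with full-length NFIA than in Cre and 13 were lower with the Δpro#3 form than in Cre.

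Slc6a8, the creatine transporter, moved opposite to Gk in each of the comparisons at day 7 in which both changed. It lies on the plus strand at chrX:70918489-70927841 (mm9). At day 0 it had 32.5, 31.6 and 33.1 FPKM in ctrl, 37.9, 37.6 and 38.8 in the Cre libraries, 37.5, 38.0 and 37.4 with NFIA and 41.8, 41.5 and 38.7 with NFIA Δpro#3. At day 7 the values were 18.1, 17.4 and 16.2 in ctrl, 43.5, 39.7 and 47.8 in Cre, 16.0, 15.3 and 17.7 with NFIA and 60.0, 58.9 and 64.3 with the Δpro#3 form. The ctrl and Cre + NFIA libraries of day 7 overlapped and lay below every day 0 library, and the Δpro#3 libraries of day 7 were the highest of all 24.

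In the day 7 Cre libraries the mean Slc6a8 level was 253.1% of ctrl (log2 fold change 1.29, SE 0.08, adjusted p = 3.5e-07). With full-length NFIA it was 37.4% of the Cre level (-1.37, SE 0.08, adjusted p = 4.3e-08), and with the Δpro#3 form 139.8% (0.48, SE 0.08, adjusted p = 0.0015). The NFIA forms differed by 1.84 (SE 0.08, adjusted p = 3.5e-09), again a large change. Full-length NFIA against ctrl gave -0.08 (SE 0.08, adjusted p = 0.53). At day 0 the gene was already higher than in ctrl, by 0.23 in Cre (SE 0.04, adjusted p = 0.014) and 0.21 in Cre + NFIA (SE 0.04, adjusted p = 0.0021). The former call was lost with quantile normalization (adjusted p = 0.057), when only those groups were fitted (0.13) and without Cre replicate 3 (0.052).

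With differentiation Slc6a8 fell in the cell types where Gk rose most. The change from day 0 was -0.87 in ctrl (SE 0.06, adjusted p = 5.1e-11) and -1.16 in Cre + NFIA (SE 0.06, adjusted p = 4.9e-13). It was 0.57 with NFIA Δpro#3 (SE 0.06, adjusted p = 1.9e-07). In the Cre libraries it was 0.19 (SE 0.06, adjusted p = 0.015), a call lost with median-of-ratios size factors (0.074), when only those groups were fitted (0.077) and without Cre day 7 replicate 3 (0.11). The difference of these changes was 1.06 between Cre and ctrl (SE 0.09, adjusted p = 2.0e-08), -1.35 between Cre + NFIA and Cre (SE 0.09, adjusted p = 2.4e-10) and 0.39 between Cre + NFIA Δpro#3 and Cre (SE 0.09, adjusted p = 0.0038).

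The synthesis genes gave a mixed account. Gatm, whose product makes the precursor guanidinoacetate, was at or near the limit of detection, with 0 to 10 reads per library, 96 reads in all and at most 0.396 FPKM. It lies on the minus strand at chr2:122420203-122437039 (mm9). The highest library was in Cre + NFIA at day 0, whose 3 values were 0.159, 0.315 and 0.396 FPKM. A count of 3 reads, taken as the smallest level shown, corresponds to 0.0870 to 0.165 FPKM for this gene, and the gene was not tested. At day 0 it had 0 to 2 reads in each of the 6 ctrl and Cre libraries, 6 and 3 reads in sum, against 4 to 10 per library with NFIA (21 in sum) and 4 to 8 with NFIA Δpro#3 (17 in sum). The Δpro#3 values there were 0.272, 0.173 and 0.133 FPKM, those of Cre 0.0835, 0.0549 and 0 and those of ctrl 0.0753, 0.0681 and 0.0648. Both groups with NFIA thus lay above ctrl and Cre, but on at most 10 reads per library. How many of all genes separate in this way was not counted, so no result is read from it. The groups of day 7 overlapped in each of the 5 comparisons. Such limits cover counting error only.

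Gamt, whose product methylates guanidinoacetate to creatine, was well expressed at day 0, with 15.8, 15.6 and 13.6 FPKM in ctrl, 13.7, 18.5 and 16.7 in the Cre libraries, 12.2, 16.9 and 14.4 with NFIA and 18.7, 16.3 and 16.1 with NFIA Δpro#3. It lies on the minus strand at chr10:79720896-79723757 (mm9), and its groups of day 0 overlapped in each of the 5 comparisons. At day 7 it had 22.0, 23.8 and 22.0 FPKM in ctrl, 16.0, 16.0 and 15.6 in Cre, 17.6, 19.7 and 17.9 with NFIA and 12.8, 13.8 and 9.66 with the Δpro#3 form. These 4 groups did not overlap, and the order of their means was that of Gk. The share of all genes that separate in this way was not counted. By limma, Cre + NFIA passed neither against Cre (adjusted p = 0.10) nor against ctrl (adjusted p = 0.072).

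Gamt at day 7 was lower in Cre than in ctrl, at 70.2% of the ctrl mean (log2 fold change -0.48, SE 0.10, adjusted p = 0.0013). The Δpro#3 libraries were lower than those with full-length NFIA (-0.58, SE 0.10, adjusted p = 0.00026). They were also lower than Cre (-0.38, SE 0.10, adjusted p = 0.023), but this call was lost with no filter on low values (adjusted p = 0.0503), when only those groups were fitted (0.099) and without replicate 1 or 2 of Cre (0.070 each). Cre + NFIA against Cre gave 0.20 (SE 0.10, adjusted p = 0.10), and this passed with median-of-ratios size factors (0.30, adjusted p = 0.031), with limma voom (adjusted p = 0.033) and when only those groups were fitted (0.017). From day 0 to day 7 Gamt rose in ctrl (0.56, SE 0.12, adjusted p = 0.00022) and fell with the Δpro#3 form (-0.47, SE 0.12, adjusted p = 0.0029). In Cre + NFIA it rose by 0.33 (SE 0.12, adjusted p = 0.016), a call lost without replicate 1 of day 0 (0.12) or replicate 2 of day 7 (0.065). In Cre it gave -0.02 (SE 0.12, adjusted p = 0.88), and its change was smaller there than in ctrl (difference -0.59, SE 0.17, adjusted p = 0.0059).

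Among the creatine kinases, Ckb and Ckmt1 were detected and rose with differentiation, and Ckmt2 was not detected. Ckmt2, the mitochondrial kinase of muscle, had 0 reads in 24 of 24 libraries, which allows up to 0.138 to 0.261 FPKM by library. It lies on the minus strand at chr13:91992992-92016490 (mm9). Ckm, the cytosolic kinase of muscle, had at most 1 read.

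Ckb lies on the minus strand at chr12:112907566-112910549 (mm9) and had 22 to 128 reads per library. Its day 0 values were 3.84, 3.86 and 3.41 FPKM in ctrl, 2.73, 1.92 and 2.71 in the Cre libraries, 2.67, 2.94 and 2.02 with NFIA and 2.60, 2.37 and 2.38 with NFIA Δpro#3. At day 7 it had 5.56, 5.54 and 4.70 FPKM in ctrl, 4.80, 5.54 and 5.27 in Cre, 4.38, 4.13 and 4.81 with NFIA and 6.73, 7.16 and 6.19 with the Δpro#3 form. In each cell type the 3 libraries of day 7 lay above those of day 0, and the Δpro#3 libraries of day 7 were the highest.

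Ckb rose from day 0 to day 7 by 0.41 in ctrl (SE 0.10, adjusted p = 0.0014), 0.85 in Cre (SE 0.10, adjusted p = 7.4e-07), 0.63 in Cre + NFIA (SE 0.10, adjusted p = 1.7e-05) and 1.15 in Cre + NFIA Δpro#3 (SE 0.10, adjusted p = 1.6e-08). At day 7 it was higher with the Δpro#3 form than with full-length NFIA (0.50, SE 0.09, adjusted p = 0.00022). It was also higher than in Cre (0.31, SE 0.09, adjusted p = 0.027), a call lost with limma voom (adjusted p = 0.087), when only those groups were fitted (0.069), without Cre replicate 1 (0.11) and without Δpro#3 replicate 1 (0.081) or 2 (0.084). Cre against ctrl at day 7 gave -0.01 (SE 0.09, adjusted p = 0.90) and Cre + NFIA against Cre -0.19 (SE 0.09, adjusted p = 0.071). At day 0 Ckb was lower in Cre + NFIA than in ctrl (-0.42, SE 0.12, adjusted p = 0.021), and this call was lost without ctrl replicate 1 (0.059) or 2 (0.056) or without Cre + NFIA replicate 3 (0.075). The value for Cre against ctrl at day 0 was -0.45 (SE 0.12, adjusted p = 0.066).

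Ckmt1, the mitochondrial kinase found outside muscle, lies on the plus strand at chr2:121183450-121189473 (mm9) and overlaps Strc on the other strand, whose reads were kept apart by the stranded counting. It was low, with 4 to 75 reads per library. Day 0 values were 0.468, 0.424 and 0.583 FPKM in ctrl, 0.809, 1.44 and 0.294 in the Cre libraries, 0.551, 0.622 and 0.657 with NFIA and 1.04, 0.191 and 0.643 with NFIA Δpro#3. At day 7 it had 1.86, 2.24 and 1.75 FPKM in ctrl, 3.28, 2.56 and 3.19 in Cre, 1.44, 1.04 and 1.49 with NFIA and 2.82, 3.25 and 3.47 with the Δpro#3 form. The Cre and Δpro#3 libraries of day 7 overlapped and lay above both other groups.

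At day 7 Ckmt1 was higher in Cre than in ctrl (0.44, SE 0.11, adjusted p = 0.0055), and the estimate ran from 0.20 with a pseudocount of 5 to 0.60 with a pseudocount of 0.1. It was lower with full-length NFIA than in Cre (-0.79, SE 0.11, adjusted p = 7.5e-05, between -1.14 and -0.34 over the alternatives) and higher with the Δpro#3 form than with full-length NFIA (0.85, SE 0.11, adjusted p = 3.1e-05). The Δpro#3 form against Cre gave 0.06 (SE 0.11, adjusted p = 0.76). Cre + NFIA against ctrl gave -0.35 (SE 0.11, adjusted p = 0.055) and passed with a pseudocount of 0.1 (adjusted p = 0.044), median-of-ratios size factors (0.046) and quantile normalization (0.0400). The rise from day 0 to day 7 was 0.98 in ctrl (SE 0.18, adjusted p = 6.9e-05), 1.16 in Cre (SE 0.18, adjusted p = 2.1e-05), 0.52 in Cre + NFIA (SE 0.18, adjusted p = 0.015) and 1.40 in Cre + NFIA Δpro#3 (SE 0.18, adjusted p = 3.1e-06). The call in Cre + NFIA was lost without replicate 3 of day 7 (adjusted p = 0.054). Ckmt1 met the filter only through its day 7 libraries, where it was high. The p-values of these rises depend on that filter, so they are not read as support for a rise. The size of these rises depended on the scale, from 0.34 to 1.99 in ctrl, 0.46 to 1.99 in Cre, 0.17 to 1.16 in Cre + NFIA and 0.54 to 2.52 in Cre + NFIA Δpro#3 over the alternatives, with the lowest value at a pseudocount of 5 and the highest with limma voom.

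The other genes of creatine and phosphate handling, a list of 5 of which 4 were tested, had no common direction. At day 7, 1 was higher and 1 lower in Cre than in ctrl, 2 were higher and 1 lower in Cre + NFIA than in Cre, and 0 were higher and 1 lower in Cre + NFIA Δpro#3 than in Cre, beside 58.8%, 63.0% and 17.7% of all genes. Slc25a5, an ADP/ATP carrier of the inner mitochondrial membrane, moved like Gk, with 505, 529.9 and 550.3 FPKM in ctrl, 332, 342 and 274 in Cre, 543, 555 and 539.5 with NFIA and 209.5, 211 and 226 with the Δpro#3 form at day 7. It was lower in Cre than in ctrl (-0.75, SE 0.08, adjusted p = 8.2e-06) and higher in Cre + NFIA than in Cre (0.79, SE 0.08, adjusted p = 3.0e-06). Alpl, a phosphatase known to act on phosphocreatine in thermogenic fat, had 20.7, 22.1 and 21.2 FPKM in ctrl, 20.7, 23.0 and 26.7 in Cre and 25.9, 24.7 and 32.7 with the Δpro#3 form at day 7, and the Cre libraries overlapped both other groups. With full-length NFIA it had 8.57, 9.03 and 10.8 FPKM, below all of these, a change of -1.22 against Cre (SE 0.12, adjusted p = 2.3e-06) and of -1.10 against ctrl (SE 0.12, adjusted p = 9.1e-05). Alpl was already lower with full-length NFIA at day 0, by -1.23 against Cre (SE 0.16, adjusted p = 0.00024) and -1.23 against ctrl (SE 0.16, adjusted p = 0.00021).

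**Figure D3:**
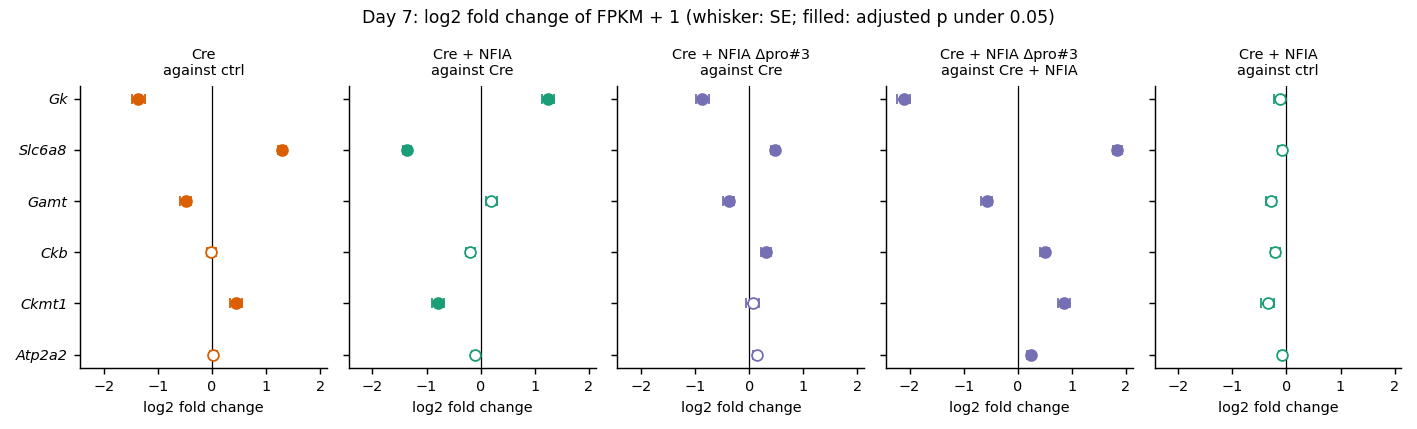
Log2 fold change of FPKM + 1 (horizontal axes) of the 6 tested genes in the 5 comparisons at day 7; whiskers are SE and filled points passed an adjusted p of 0.05. Gk and Slc6a8 lay on opposite sides of 0 in the first 4 panels, and no point of the last panel, Cre + NFIA against ctrl, passed.

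Atp2a2 had the highest level of the 8 genes and the narrowest range, 75.0 to 97.5 FPKM over the 24 libraries with group means of 78.8 to 93.3. It lies on the minus strand at chr5:122903531-122952183 (mm9). At day 0 it had 85.4, 88.0 and 86.2 FPKM in ctrl, 82.7, 75.0 and 78.7 in the Cre libraries, 88.6, 87.2 and 87.6 with NFIA and 89.3, 93.2 and 87.4 with NFIA Δpro#3. At day 7 it had 87.4, 76.0 and 86.9 FPKM in ctrl, 88.1, 83.7 and 82.8 in the Cre libraries, 80.3, 79.6 and 76.9 with NFIA and 94.8, 87.7 and 97.5 with NFIA Δpro#3. The ctrl libraries overlapped those of Cre and of Cre + NFIA, and the Δpro#3 libraries lay above those of ctrl and of Cre + NFIA. The difference between the NFIA forms was 0.24 (SE 0.06, adjusted p = 0.0044), and it was 0.12 with median-of-ratios size factors (adjusted p = 0.063). The 4 other comparisons at day 7 lay between -0.10 and 0.13 and did not pass, and Cre against ctrl, at 0.03 (SE 0.06, adjusted p = 0.73), was -0.10 with median-of-ratios size factors. Cre + NFIA against Cre, at -0.10 (SE 0.06, adjusted p = 0.16), passed with quantile normalization (-0.22, adjusted p = 0.019) and was -0.0012 with median-of-ratios size factors. At day 0 Atp2a2 was higher than in Cre by 0.16 in Cre + NFIA (SE 0.04, adjusted p = 0.016), and the difference was 0.19 in Cre + NFIA Δpro#3 (SE 0.04, adjusted p = 0.0095). The former was lost without Cre replicate 2 (0.060) or Cre + NFIA replicate 1 (0.051), and the latter with quantile normalization (0.10). From day 0 to day 7 it fell by 0.15 in Cre + NFIA (change -0.15, SE 0.05, adjusted p = 0.014), a call lost with median-of-ratios size factors (0.16), with limma voom (0.24) and without replicate 3 of day 7 (0.055), and the other cell types gave -0.05 to 0.11. In ctrl the change of -0.05 (adjusted p = 0.36) was -0.26 with quantile normalization (adjusted p = 0.0011) and 0.02 with median-of-ratios size factors (adjusted p = 0.75).

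Of the other calcium pumps and pump regulators, a list of 4, only Atp2a3 was tested. Sln, which codes for sarcolipin, an uncoupler of the pump, had 0 reads in 24 of 24 libraries, Pln (phospholamban) at most 1 and Atp2a1, the pump of fast muscle, at most 5. Atp2a3, which codes for SERCA3, had 3.98, 5.25 and 4.74 FPKM in ctrl at day 7, 0.778, 0.830 and 0.432 in Cre, 3.15, 3.01 and 3.55 with NFIA and 0.260, 0.359 and 0.257 with the Δpro#3 form. It was thus lower in Cre than in ctrl (-1.75, SE 0.12, adjusted p = 6.6e-07) and higher with full-length NFIA than in Cre (1.34, SE 0.12, adjusted p = 1.4e-06), at levels far below those of Atp2a2. Of 9 genes of calcium release and storage, 4 were tested. At day 7, 3 were higher and 0 lower in Cre than in ctrl, and 0 were higher and 2 lower in Cre + NFIA than in Cre, beside 58.8% and 63.0% of all genes tested. Itpr3, a calcium release channel, had 3.73, 3.24 and 3.20 FPKM in ctrl and 9.43, 8.74 and 11.0 in Cre (1.28, SE 0.10, adjusted p = 1.5e-06). Of the 4 genes of mitochondrial calcium uptake, 3 were higher and 1 lower in Cre than in ctrl, and 1 was higher and 2 lower in Cre + NFIA than in Cre.

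Counted over the 6 tested genes, the comparisons between cell types at day 7 gave 0 to 6 changes. Cre against ctrl changed 4 of them, 2 higher and 2 lower, and 58.8% of all genes tested changed. Cre + NFIA against Cre changed 3, 1 higher and 2 lower, against 63.0% of all genes. The Δpro#3 form against Cre changed 4, 2 higher and 2 lower, against 17.7% of all genes, and the count was 2 without Cre replicate 1 or when only those groups were fitted. The NFIA forms differed in 6, 4 higher and 2 lower with the Δpro#3 form, against 69.2% of all genes. The 2 large changes in that comparison, Gk and Slc6a8, stand beside 6.92% of all genes. Cre + NFIA against ctrl changed 0 of the 6 by limma, against 18.0% of all genes. At an unadjusted p under 0.05 the count was 3, limma voom called 1 (Gamt), and Ckmt1 or Gamt passed under some of the other alternatives.

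At day 0 few of the 6 genes changed. Cre against ctrl changed 1 (Slc6a8), against 3.33% of all genes, and Cre + NFIA against Cre changed 1 (Atp2a2), against 27.6%. The Δpro#3 form against Cre changed 1 (Atp2a2), against 18.3%, and the NFIA forms differed in 0 by limma (0 also with limma voom, 1 at an unadjusted p under 0.05), against 10.1%. Cre + NFIA against ctrl changed 2, Slc6a8 and Ckb, against 33.1% of all genes. Comparisons share groups (Cre or ctrl libraries), so they are not independent of each other.

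From day 0 to day 7, 5 of the 6 genes changed in ctrl (4 higher, 1 lower), against 71.0% of all genes, with 1 large change (Gk) against 8.50%. In Cre 4 changed, all higher, against 51.7%. In Cre + NFIA 6 changed (4 higher, 2 lower), against 70.1%, with 1 large change (Gk) against 9.08%. In Cre + NFIA Δpro#3 5 changed (4 higher, 1 lower), against 41.5%. Each of these counts includes Ckmt1 among the higher genes, and Ckmt1 met the filter only through its day 7 libraries. The difference between days changed for 4 genes in Cre against ctrl (2 higher, 2 lower), against 49.2% of all genes, for 4 in Cre + NFIA against Cre (1 higher, 3 lower), against 48.9%, and for 2 in Cre + NFIA Δpro#3 against Cre (Slc6a8 higher, Gk lower), against 18.2%.

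**Figure D4:**
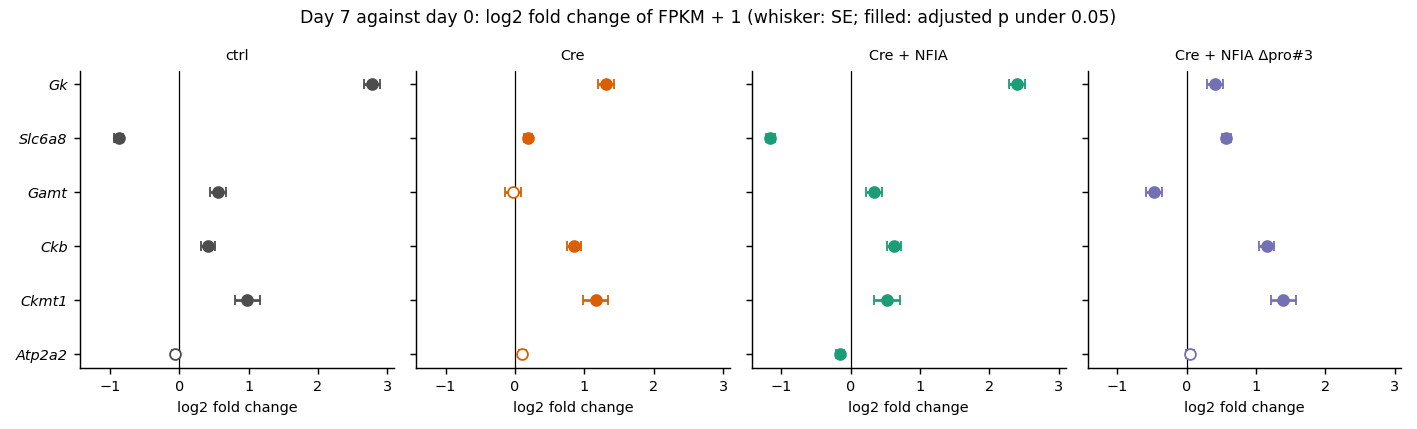
Log2 fold change of FPKM + 1 from day 0 to day 7 (horizontal axes) of the 6 tested genes in each cell type; whiskers are SE and filled points passed an adjusted p of 0.05. Gk ran from 2.78 in ctrl to 0.41 in Cre + NFIA Δpro#3, Slc6a8 fell in ctrl and Cre + NFIA and rose in the other cell types, and Ckb and Ckmt1 lay above 0 in all 4.

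Several marker levels moved with these results at day 7. The summed level of 8 adipocyte markers was 21727 to 25244 FPKM in ctrl, 4389.5 to 9398 in Cre, 20287 to 20545 in Cre + NFIA and 844 to 2126 in Cre + NFIA Δpro#3, and 8 of the 8 were lower in Cre than in ctrl, higher in Cre + NFIA than in Cre and lower in Cre + NFIA Δpro#3 than in Cre. Lipe stands in both that list and the glycerol list. The summed level of 6 stromal precursor markers was 498 to 548 FPKM in ctrl, 1096 to 1234 in Cre, 527 to 596 in Cre + NFIA and 1253 to 1510 in Cre + NFIA Δpro#3, most of it from Ly6a. Of the 5 stromal markers tested, 5 were higher in Cre than in ctrl, 5 lower in Cre + NFIA than in Cre, and 1 higher and 0 lower in Cre + NFIA Δpro#3 than in Cre. In these comparisons 58.8%, 63.0% and 17.7% of all genes changed, in that order. Within day 7, Gk and Gamt were thus high where the adipocyte markers were high, and Slc6a8 and Ckmt1 where the stromal sum was high. Across days, the adipocyte sum was lowest at day 0 (76.2 to 122 FPKM), and so were the group means of Gk. These were 2.47 to 3.13 FPKM at day 0, against 4.08 or more at day 7. Gamt did not follow across days, with its lowest group mean, 12.1 FPKM, in Cre + NFIA Δpro#3 at day 7. Nor did Slc6a8 and Ckmt1 follow the stromal sum, which was highest at day 0 (2022 FPKM or more). Slc6a8 had its highest group mean, 61.0 FPKM, in Cre + NFIA Δpro#3 at day 7. The group means of Ckmt1 were 0.492 to 0.848 FPKM at day 0, against 1.32 to 3.18 at day 7. In bulk RNA, fewer cells of a type and less RNA per cell cannot be told apart, and the part of these markers in the results was not tested.

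Thermogenic markers (6 genes) summed to 60.8 to 79.3 FPKM in ctrl, 4.22 to 10.5 in Cre, 146 to 155 in Cre + NFIA and 1.20 to 2.20 in Cre + NFIA Δpro#3 at day 7, with Ucp1 at no more than 1.55 FPKM in any library. Between ctrl and Cre + NFIA, where Gk overlapped, 3 of these markers were tested. Of them, 2 were higher and 0 lower in Cre + NFIA, beside 18.0% of all genes changed. Cox8b had 9.87, 14.4 and 12.7 FPKM in ctrl and 109.7, 115 and 107 in Cre + NFIA, Elovl3 had 48.7, 57.2 and 63.1 against 29.5, 32.8 and 35.0 (log2 fold change -0.77, SE 0.26, adjusted p = 0.059), and Ucp1 overlapped. Smooth muscle and mural markers (5 genes) summed to 226 to 292 FPKM in ctrl, 272 to 336 in Cre, 126 to 152 in Cre + NFIA and 369 to 455 in Cre + NFIA Δpro#3. Their 4 tested genes did not all move together. In Cre against ctrl 2 were higher and 1 lower, beside 58.8% of all genes changed. In Cre + NFIA against Cre 1 was higher and 3 lower (63.0%), and in Cre + NFIA Δpro#3 against Cre 2 were higher and 0 lower (17.7%). Skeletal muscle markers (8 genes) stayed at or below 7.34 FPKM in sum, with Myh4 at 0 reads in 24 of 24 libraries, and cardiac muscle markers (6 genes) at or below 3.33.

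**Figure D5:**
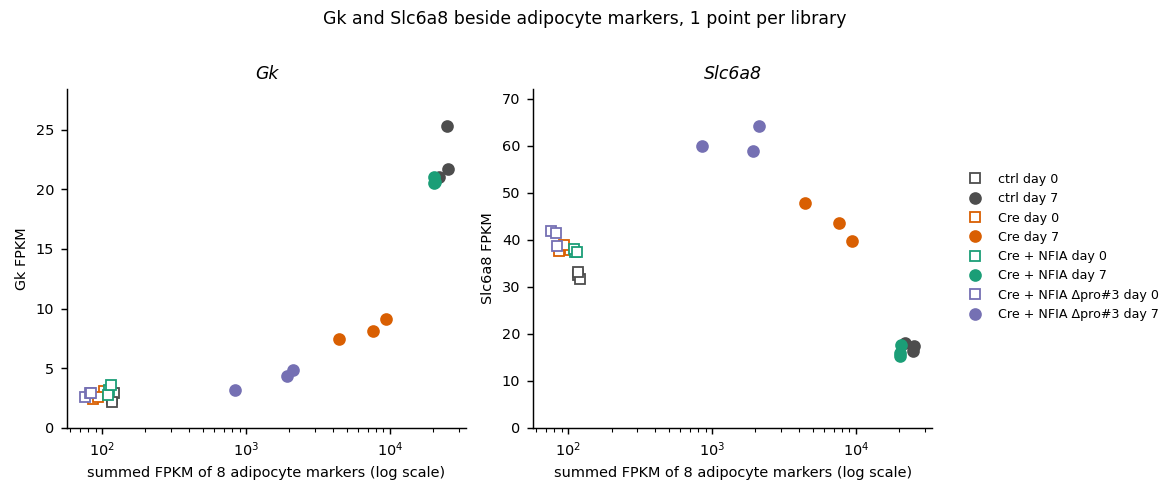
FPKM of Gk and of Slc6a8 (vertical axes) beside the summed FPKM of 8 adipocyte markers (horizontal axes, log scale) in each of the 24 libraries; open squares are day 0, filled circles day 7. At day 7 the libraries with higher marker sums, 20287 FPKM or more, had Gk at 20.6 FPKM or above and Slc6a8 at 18.1 or below, while the day 0 libraries had intermediate Slc6a8 levels.

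Genes whose pattern over the 24 libraries was much like that of each member were named by the correlation of log2(FPKM + 1), as a description over libraries that share 8 groups. For Gk the closest 3 were Tmem135, Echdc1 and Hsd17b12 (Pearson's r = 0.995 each). For Slc6a8 they were Arl4c (0.989), Rab31 (0.979) and Cmtm3 (0.974). Genes close to Ckb included Nkain1 (0.935) and Gdf10 (0.928), and Ckmt1 was closest to Hmox1 (0.927), Cpz (0.924) and Cyb5r3 (0.917). Lower values were found for Gamt, with Znhit1 (0.823) first, and for Atp2a2, with Sgms2 (0.834) first.

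Ordered by group mean, Gk ran from 22.7 ± 2.32 FPKM (SD, n = 3) in ctrl at day 7 and 20.7 ± 0.245 in Cre + NFIA at day 7, neighbours that overlapped, through 8.21 ± 0.834 in Cre and 4.08 ± 0.871 in Cre + NFIA Δpro#3 at day 7 to 2.47 ± 0.400 in ctrl at day 0, and the Δpro#3 libraries of day 7 overlapped those of Cre + NFIA at day 0. Slc6a8 ran from 61.0 ± 2.88 FPKM in Cre + NFIA Δpro#3 at day 7 to 16.3 ± 1.24 in Cre + NFIA at day 7. Its highest group overlapped no other, and Cre at day 7 (43.7 ± 4.05) overlapped Cre + NFIA Δpro#3 at day 0 (40.7 ± 1.69). Ckb ran from 6.69 ± 0.487 FPKM in Cre + NFIA Δpro#3 at day 7 to about 2.45 in the lowest groups of day 0, and Ckmt1 from 3.18 ± 0.332 FPKM, again in Cre + NFIA Δpro#3 at day 7, to 0.492 ± 0.0820 in ctrl at day 0. For Gamt the extremes were ctrl at day 7 (22.6 ± 1.04 FPKM) and Cre + NFIA Δpro#3 at day 7 (12.1 ± 2.16), with overlapping neighbours between the second and the last group. For Atp2a2 every pair of neighbours overlapped.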

How the data were processed

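RNA-seq libraries were prepared by the authors with a stranded mRNA kit and aligned to mm9 with STAR 2.5.3a, keeping reads with 1 alignment. The deposited values are FPKM, made by the authors from the matched-strand counts per gene. FPKM times length gave whole reads for 100% of values (within 0.1 read). These reads were used for depth (7.73 to 14.62 M per library), limits of detection and 1 alternative only. The authors' test needs a table of read numbers and was not used.

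Groups follow the sample titles. Values were analysed as log2(FPKM + 1) with limma 3.58.1 in R 4.3.3 (mean-variance trend, two-sided, Benjamini-Hochberg over the 12640 of 24825 genes with at least 1 FPKM in at least 3 libraries). Comparisons within a day used 12 libraries, and those between days and differences of differences used 24, in 17 comparisons. The fit was tested on simulated data in which few genes changed, so that test does not show how the fit behaves where most genes change. The genes, pathway lists and marker lists were chosen with earlier results of these data known. All 8 genes were named, and of each pathway list up to 2 genes with the largest change past the adjusted p. Gene positions are from GENCODE vM1 on NCBIM37 (mm9), and promoters from RefSeq.

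Alternatives were pseudocounts of 0.1 and 5, a mean of at least 5 FPKM or no filter in place of the filter used, quantile normalization, size factors by median of ratios, limma voom on the recovered reads, only the groups compared, a replicate block and each library left out. 1 gene with a pattern like that of Ckb is not reported here.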

Additional observations from a re-analysis of the deposited data

Results flagged for a closer look

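For 10 results the difference between cell types at day 7 itself differed from that at day 0 by the test of the difference of changes (limma, adjusted p under 0.05, 24 libraries). Between Cre and ctrl this difference was -1.46 for Gk, 1.06 for Slc6a8, -0.59 for Gamt and 0.44 for Ckb. Between Cre + NFIA and Cre it was 1.09 for Gk, -1.35 for Slc6a8, -0.64 for Ckmt1 and -0.26 for Atp2a2. Between Cre + NFIA Δpro#3 and Cre it was -0.90 for Gk and 0.39 for Slc6a8. These are 4, 4 and 2 of the 6 tested genes, beside 49.2%, 48.9% and 18.2% of all genes in the same comparisons. The results for Gk and Slc6a8 passed under each of the 21 alternatives run, and so did that for Gamt. The result for Ckb (adjusted p = 0.018) was lost with median-of-ratios size factors (0.075), quantile normalization (0.18) and limma voom (0.13), without ctrl day 7 replicate 3 (0.055) and without Cre day 0 replicate 2 (0.062). The result for Ckmt1 (adjusted p = 0.047) passed under 3 of 20 alternatives, and that for Atp2a2 (adjusted p = 0.0067) under 19 of 21, the exceptions being median-of-ratios size factors (-0.13, adjusted p = 0.11) and limma voom (-0.13, adjusted p = 0.14). The adipocyte markers, whose summed level is given with the results, moved in the same comparisons, with 8 of 8 lower in Cre against ctrl by the same difference of changes, 6 of 8 higher in Cre + NFIA against Cre and 8 of 8 lower in Cre + NFIA Δpro#3 against Cre, and their part in these results was not tested.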

How the results depend on the processing

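The number of the 6 tested genes that changed stayed within 1.5 times in 138 of 153 results under settings other than leaving out a library. At day 7, Cre + NFIA Δpro#3 against Cre gave 2 in place of 4 when only those groups were fitted, and Cre + NFIA against ctrl gave 1 in place of 0 with a pseudocount of 0.1, median-of-ratios size factors, quantile normalization, limma voom, only those groups or the replicate block. At day 0, Cre against ctrl gave 0 in place of 1 with quantile normalization or only those groups, Cre + NFIA against Cre gave 2 in place of 1 without the filter, Cre + NFIA Δpro#3 against Cre gave 0 in place of 1 with quantile normalization, and Cre + NFIA against ctrl gave 1 in place of 2 with a mean of at least 5 FPKM. That minimum, which Ckb and Ckmt1 do not reach, gave 3, 2 and 3 changes from day 0 to day 7 in ctrl, Cre and Cre + NFIA Δpro#3, in place of 5, 4 and 5. Leaving out a library gave 2 to 4 for Cre + NFIA Δpro#3 against Cre at day 7, and at day 0 0 to 2 for Cre against ctrl (0 without Cre replicate 3, 2 without Cre replicate 1), 0 to 1 for Cre + NFIA against Cre (0 without Cre replicate 2 or Cre + NFIA replicate 1) and 1 to 2 for Cre + NFIA against ctrl. For the difference between days of Cre + NFIA Δpro#3 against Cre it gave 2 to 4 (4 without Cre day 0 replicate 2). Beyond these counts the causes were not tested.

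No reversed value passed the test. Atp2a2 in Cre against ctrl at day 7 was -0.10 with median-of-ratios size factors and -0.094 with limma voom, and in Cre + NFIA against ctrl at day 0 it was -0.0066, -0.030 (quantile) and -0.0067. Atp2a2 from day 0 to day 7 was 0.018 in ctrl under both of those scalings and -0.0024 in Cre + NFIA Δpro#3 with limma voom, and its difference of changes for Cre + NFIA Δpro#3 against Cre was 0.043 with quantile normalization. At day 0 Ckb in Cre + NFIA Δpro#3 against Cre was -0.0032 and -0.010 with the same scalings, and between the NFIA forms Ckb was 0.027, Ckmt1 0.028 and Atp2a2 -0.021 with quantile normalization, and Ckmt1 0.00080 with a pseudocount of 5. Leaving out a library gave a range across 0 at day 7 for Ckb (-0.081 to 0.034) and Atp2a2 (-0.038 to 0.061) in Cre against ctrl and for Ckmt1 in Cre + NFIA Δpro#3 against Cre (-0.022 to 0.12). At day 0 such ranges were, in Cre + NFIA against Cre, -0.080 to 0.15 for Ckb and -0.39 to 0.073 for Ckmt1, in Cre + NFIA against ctrl -0.16 to 0.056 for Gamt, and between the NFIA forms -0.14 to 0.053 for Ckb and -0.20 to 0.18 for Ckmt1. In Cre + NFIA Δpro#3 against Cre at day 0 they were -0.11 to 0.067 for Ckb, -0.41 to 0.052 for Ckmt1, -0.046 to 0.16 for Gamt and -0.020 to 0.11 for Gk. From day 0 to day 7 they were -0.14 to 0.067 for Gamt in Cre and -0.089 to 0.0097 for Atp2a2 in ctrl, and for the difference of changes of Cre against ctrl -0.053 to 0.40 for Ckmt1.

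Median-of-ratios size factors moved the median of all genes in Cre against ctrl at day 7 from 0.09 to -0.01, a shift of -0.10, under which Gk was -1.48, Slc6a8 1.17, Gamt -0.61 and Ckmt1 0.35. Replicate numbers were not stated to pair cultures, and same-numbered libraries' deviations correlated at -0.159 to 0.056 on average, so the replicate block served as an alternative. It changed the call of Gamt in Cre + NFIA against ctrl at day 7 (-0.29, adjusted p = 0.043) and in the difference of changes of Cre + NFIA Δpro#3 against Cre (-0.45, adjusted p = 0.046), and that of Ckmt1 in the difference of changes of Cre + NFIA relative to Cre (-0.64, with an adjusted p of 0.060), and no other call. Depth limits Ckmt1 (4 to 75 reads), Gatm and Ckmt2.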
